A study of Mus musculus with 2 samples.

Results

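A set of 10 transcription factors that mark or direct neural lineages were followed across cultured hippocampal neural stem cells: the POU domain genes Pou3f1, Pou3f2 and Pou3f3, the SOX genes Sox2, Sox4, Sox9, Sox11 and Sox21, and the basic helix-loop-helix genes Olig1 and Olig2. They were taken by name with earlier results of these data known, so counts among the 10 beside all genes are a description. All 10 had a row among the 15364 genes of the merged count table. Male C57BL6/J mice, 6 weeks of age, gave the hippocampal tissue; its cells were expanded in culture, sorted singly into plates and profiled by SORT-seq, which captures polyadenylated RNA and tags each transcript at its 3' end with a molecular identifier. Quiescent cells were kept in FGF2 and heparin with 50 ng/mL BMP4 and no EGF, and counted as quiescent once 3 days had passed. The 24 h exit and 48 h exit cells had been moved for 24 or 48 hours from that medium into activation medium (FGF2, EGF and heparin) with 0.5 ug/mL noggin, which binds and blocks BMP4. Activated cells grew with 20 ng/mL FGF2 and EGF and heparin. No genotype, transgene or reporter is named, so the 4 groups differ by medium and time; all are cells of 1 strain that were maintained in vitro, outside their niche. Each state was sorted from 4 gates along the intensity of punctate autofluorescence, named in rising order the low, the low-mid, the mid-high and then the high gate. The number of mice and of separate cultures is not given, so each state is treated as 1 culture.

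POU3 factors bind octamer-like DNA, often beside a SOX protein bound to the same enhancer, and act in neural progenitors and in glia. Sox2 holds neural stem cells in an undifferentiated state, Sox9 acts in stem cells and astroglia, Sox21 opposes Sox2 on shared targets, and the SOXC pair Sox4 and Sox11 acts in progenitors and newborn neurons. Olig2 sets oligodendrocyte and motor neuron fate and is present in dividing progenitors, whereas Olig1 acts in oligodendrocyte formation and myelination.

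The GENCODE M21 annotation on GRCm38 places Pou3f1 at chr4:124656807-124660655 (+), Pou3f2 at chr4:22482780-22488366 (-) and Pou3f3 at chr1:42695768-42703176 (+). The SOX genes are at chr3:34650405-34652461 (+) for Sox2, chr13:28948919-28953713 (-) for Sox4, chr11:112782224-112787760 (+) for Sox9, chr12:27334264-27342574 (-) for Sox11 and chr14:118233232-118237030 (-) for Sox21. Olig2 is at chr16:91225457-91228677 (+) and Olig1 at chr16:91269772-91271933 (+), with 41094 bases between the end of Olig2 and the start of Olig1. All are annotated with a single exon except Sox9 with 3 and Olig2 with 2. The RefSeq promoter table on GRCm38.p6, which runs from 250 bases before to 50 bases after the start that RefSeq gives, matched 7 of the 10 genes (Pou3f2, Pou3f3, Sox2, Sox4, Sox11, Sox21 and Olig2). The promoters of Pou3f3, Sox11 and Olig2 are shown because Sox11 and Olig2 differed most between cultures among the matched genes of their families, and Pou3f3 gave most POU3 counts in quiescent cells. The RefSeq start equals the GENCODE start for Pou3f2, Pou3f3 and Sox21, but lies 144 bases upstream of it for Sox11, 410 upstream for Sox2, and 93 and 14 downstream for Olig2 and Sox4, so the Sox11 window lies wholly before the GENCODE gene. Capitals mark the GC box GGGCGG and the CCAAT box CCAAT on either strand, where neighbouring GC boxes may overlap.
Pou3f3, chr1:42695518-42695817, plus strand: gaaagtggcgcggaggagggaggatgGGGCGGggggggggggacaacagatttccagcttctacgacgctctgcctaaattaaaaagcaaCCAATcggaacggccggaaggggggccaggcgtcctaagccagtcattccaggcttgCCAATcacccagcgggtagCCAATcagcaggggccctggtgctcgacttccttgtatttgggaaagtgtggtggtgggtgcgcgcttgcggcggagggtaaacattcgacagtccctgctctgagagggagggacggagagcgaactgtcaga
Sox11, chr12:27342669-27342968, minus strand: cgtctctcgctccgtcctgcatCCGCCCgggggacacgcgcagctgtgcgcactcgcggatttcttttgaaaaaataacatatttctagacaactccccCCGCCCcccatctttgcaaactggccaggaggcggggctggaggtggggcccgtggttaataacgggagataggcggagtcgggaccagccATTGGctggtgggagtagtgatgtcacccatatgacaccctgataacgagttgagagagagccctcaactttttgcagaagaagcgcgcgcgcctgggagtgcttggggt
Olig2, chr16:91225300-91225599, plus strand: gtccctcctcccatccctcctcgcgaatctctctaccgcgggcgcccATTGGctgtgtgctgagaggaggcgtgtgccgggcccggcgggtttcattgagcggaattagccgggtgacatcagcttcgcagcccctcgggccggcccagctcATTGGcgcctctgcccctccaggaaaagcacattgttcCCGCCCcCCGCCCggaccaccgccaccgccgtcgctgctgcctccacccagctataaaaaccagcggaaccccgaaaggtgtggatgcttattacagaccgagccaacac
Of these, Pou3f3 held 1 GC box and 3 CCAAT boxes, Sox11 held 2 and 1, and Olig2 held 2 and 2, beside 1 match to TATAAA in Olig2 alone of the 7. Over all 32851 promoters of this length in the table, 35.7% held a GC box, 37.4% a CCAAT box and 13.6% TATAAA. The octamer ATGCAAAT, the letters that POU factors are best known to bind, was in none of the 7 and in 1.74% of all promoters, and the SOX core ACAAT was in the Olig2 promoter only, against 31.0% of all promoters. G and C made up between 52.0% (Sox4) and 67.7% (Pou3f2) of the 7 promoters, with a median of 52.7% over the table.

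The data were 640 kept cells, 174 quiescent, 151 at 24 h, 151 at 48 h and 164 activated, with 5013 to 97009 counts a cell and median totals of 25137, 19270, 24947 and 35946. The design text gives 47 cells per condition, and the table of kept cells holds 32 to 46 per condition and gate. Quiescent and 24 h exit cells shared 1 plate and 48 h exit and activated cells the other, so in 48 h exit against 24 h exit and in activated against quiescent the state and the plate cannot be told apart. Of the kept wells, 269 plate positions, which set the cell barcode, occur on both plates, and each plate was its own library. Of 6 stem or progenitor markers 5 had counts in quiescent cells, and their summed level was 5749, 3222, 3481 and 6089 CPM in quiescent, 24 h, 48 h and activated cells. Of the 4 with enough counts, 2 were at least 2-fold higher (Nes and Vim) and 1 lower (Fabp7) in activated than in quiescent cells. The sum thus mixes markers that went opposite ways. In that order of cultures Fabp7 had 4901, 2369, 2152 and 2234 CPM, Vim 551, 594, 844 and 3036 CPM, and Nes 56.9, 152, 402 and 657 CPM. Microglial, endothelial and mural markers each summed to at most 2.13 CPM in any culture. Neuron and neuroblast markers summed to 270, 364, 477 and 533 CPM in that order of cultures, although Dcx had 1 count in all and Stmn2 none. Map2 gave most of each sum, at 202, 333, 425 and 349 CPM, and Cd24a had 11.4, 6.24, 34.7 and 148 CPM. Tubb3 went the other way, at 41.4, 7.55, 4.36 and 10.7 CPM, so no common rise of these markers is read from the sums. Oligodendrocyte lineage markers summed to 199, 306, 232 and 166 CPM, with Gpr17, Mog and Mag at 0 and Mbp at no more than 1 count in a culture. All 10 astrocyte markers had counts, and their summed level was 7938, 9345, 2930 and 1488 CPM in the quiescent, 24 h, 48 h and activated cultures. These markers did not all move together. Aqp4 had 244, 106, 6.06 and 1.68 CPM and Slc1a2 had 422, 1265, 291 and 17.1 CPM in that order.

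Between cultures the cells' counts were summed and given as CPM, the count divided by the culture's total on the usual scale, and ratios are log2 ratios with 10 CPM added. Log2 ratios of single genes per spike-in count have nothing added. Counts of genes past 2-fold and medians per spike-in count keep the 10 CPM. Brackets hold 95% intervals for counting error only (exact Poisson for a level, exact binomial for a share or ratio). With 1 culture per state there is no test, and the levels of the 4 gates show how far each value varied within a culture.

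Pou3f1, known in glial and neural progenitors, differed most. It had 11.0 CPM [8.24 to 14.4] in quiescent cells, 143 CPM [130 to 157] at 24 h, 461 CPM [441 to 482] at 48 h and 265 CPM [253 to 278] in activated cells. Over the gates it spanned 9.30 to 15.5 CPM in quiescent cells, 87.7 to 263 CPM at 24 h, 354 to 568 CPM at 48 h and 243 to 305 CPM in activated cells. The quiescent gates lay below all others, the 48 h gates above all others, and the 24 h and activated gates overlapped between 243 and 263 CPM. Its rank among the genes with a count was 7625 in quiescent cells, 952 at 24 h, 203 at 48 h and 486 in activated cells.

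Pou3f2, which acts with Pou3f3 in upper-layer cortical neurons, was highest at 24 h. It had 25.8 CPM [21.4 to 30.7] in quiescent, 60.1 [51.7 to 69.4] in 24 h, 33.5 [28.1 to 39.5] in 48 h and 21.8 [18.4 to 25.7] in activated cells. Its 24 h gates, at 45.8 to 70.3 CPM, lay above every gate of the other 3 cultures; the gates of quiescent cells overlapped those of 48 h and of activated cells. Pou3f3 had 210 CPM [197 to 223] in quiescent, 228 [211 to 245] in 24 h, 117 [107 to 128] in 48 h and 134 [125 to 143] in activated cells. Its levels fell into a higher pair, quiescent and 24 h, and a lower pair, 48 h and activated, and within each pair the gates overlapped. The cultures of each pair also shared a plate, so this split cannot be told apart from the plate. Per spike-in count in place of the total, these pairs did not hold. The log2 ratio of Pou3f3 was then -0.02 for activated and -0.34 for 24 h cells, each against quiescent cells.

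The make-up of the POU3 counts therefore differed by culture. Pou3f1 gave 4.47% [3.37 to 5.80] of summed POU3 counts in quiescent cells, 33.1% [30.6 to 35.8] at 24 h, 75.4% [73.7 to 77.1] at 48 h and 63.0% [61.2 to 64.8] in activated cells. Pou3f3 gave 85.1%, 52.9%, 19.2% and 31.8% in the same order, and Pou3f2 gave 10.5%, 14.0%, 5.47% and 5.18%. These are shares of molecules counted at the 3' end, with no correction for how well each gene is captured, so only their change between cultures can be read. Within 24 h cells the Pou3f1 share was 54.1% in the low, 40.1% in the low-mid, 21.3% in the mid-high and 22.4% in the high gate.

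Among the SOX genes Sox11 and Sox21 differed most. Sox11 had 40.3 CPM [34.8 to 46.4] in quiescent, 49.6 [42.0 to 58.1] in 24 h, 165 [153 to 178] in 48 h and 248 [236 to 260] in activated cells. The gates of quiescent cells, 33.1 to 50.2 CPM, and of 24 h cells, 26.2 to 91.7 CPM, overlapped. They lay below those of 48 h cells, 133 to 201 CPM, and of activated cells, 182 to 355 CPM. Sox11 thus split as the plates did, so state and plate cannot be told apart in this split. Sox4, its SOXC partner, had 40.9 CPM in quiescent, 49.9 in 24 h, 66.2 in 48 h and 84.5 in activated cells, the same order over a narrower range and with gates that overlapped between neighbouring cultures. Sox21 had 27.4 CPM [22.9 to 32.5] in quiescent, 27.6 [22.0 to 34.1] in 24 h, 18.2 [14.3 to 22.8] in 48 h and 56.9 [51.2 to 62.9] in activated cells. Every activated gate of Sox21, at 50.5 to 66.3 CPM, lay above every other gate; the quiescent gates overlapped those of both exit times, and the 48 h gates lay below the 24 h gates.

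Sox2 and Sox9 stayed within a narrow range. Sox2 had 192 CPM [180 to 205] in quiescent, 263 [246 to 282] in 24 h, 167 [155 to 180] in 48 h and 184 [174 to 195] in activated cells. Sox9 had 234 CPM [221 to 249], 280 [262 to 300], 193 [180 to 207] and 230 [218 to 241] in that order of cultures. In CPM both had their highest culture level at 24 h. Per spike-in count both were highest in activated cells instead, with log2 ratios against quiescent cells of 0.57 for Sox2 and 0.60 for Sox9. The same ratios for 24 h against quiescent cells were -0.01 and -0.21. For Sox2 only the low gate of 24 h cells overlapped another culture, whereas the Sox9 gates at 24 h spanned 179 to 334 CPM and those of quiescent cells 189 to 338 CPM, with the quiescent low gate the highest of all 16. Sox2ot, a transcript on the same strand that spans Sox2, had 4.36, 8.53, 7.52 and 28.3 CPM in the 4 cultures. Whether counting used the strand is not given in the sources used here, and the antisense or overlapping genes annotated at Pou3f1, Pou3f3, Sox4, Sox21 and Olig1 were not analysed here.

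Olig1 and Olig2 ranked within the top 200 genes of every culture. Olig1 had 1456 CPM [1422 to 1490] in quiescent, 2284 [2231 to 2339] in 24 h, 1912 [1870 to 1955] in 48 h and 862 [840 to 885] in activated cells. Olig2 had 487 CPM [467 to 507], 1363 [1322 to 1405], 1618 [1579 to 1657] and 1005 [981 to 1030] in the same order. In CPM both were higher during exit than in either end state, but activated cells were lowest for Olig1 and quiescent cells were lowest for Olig2. Per spike-in count Olig2 was lower at 24 h than in activated cells. The gates of activated cells did not overlap those of other cultures for Olig1 (680 to 956 CPM), nor did the gates of quiescent cells for Olig2 (462 to 523 CPM). Olig1 counts per Olig2 count were 2.99 in quiescent, 1.68 in 24 h, 1.18 in 48 h and 0.858 in activated cells. Over the gates this ratio spanned 2.30 to 3.44 in quiescent, 1.58 to 1.85 in 24 h, 0.921 to 1.30 in 48 h and 0.793 to 0.929 in activated cells, so the ranges of 48 h and activated cells met and the others stood apart.

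**Figure D1:**
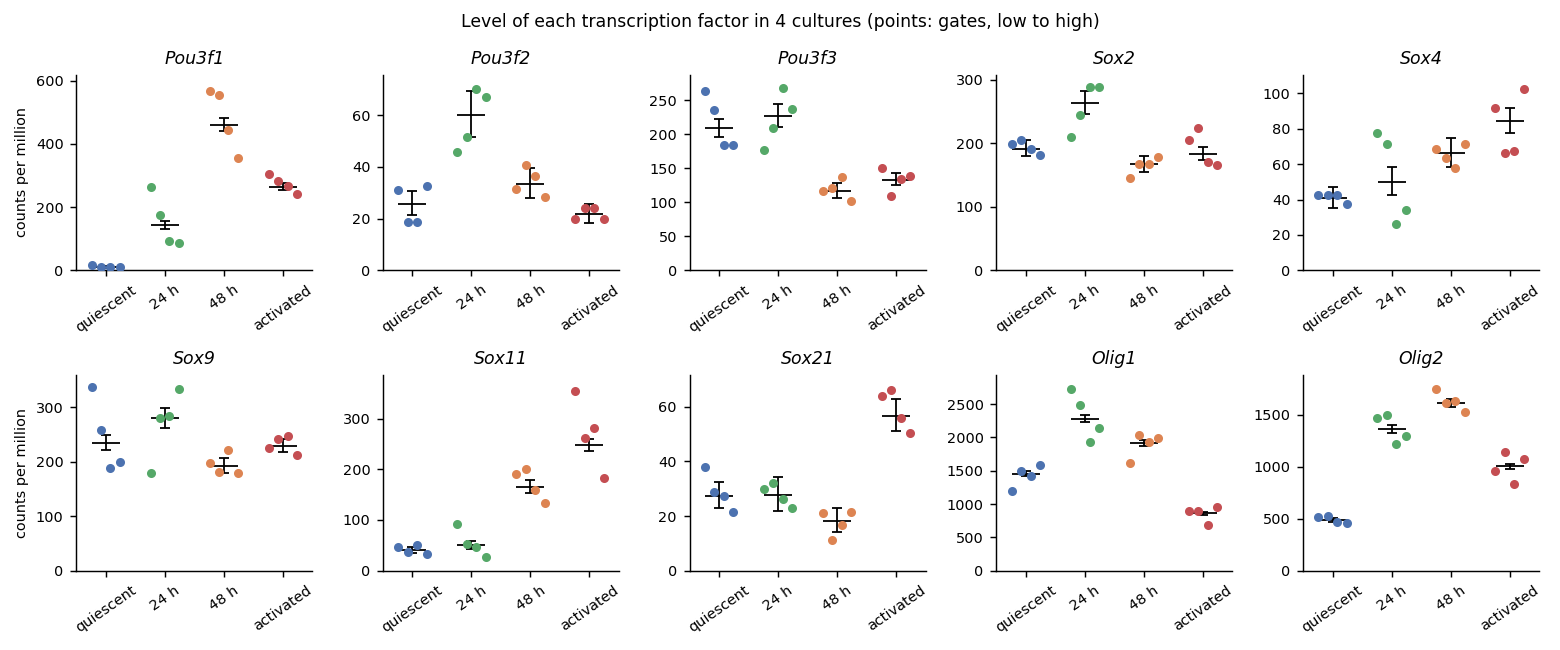
Level of each gene in CPM (vertical axis, from 0) by culture, with quiescent cells first, then both exit times, then activated cells; the dash and bar are the culture's level with its 95% counting interval and the 4 points are the gates from low to high. Pou3f1 runs from 11.0 to 461 CPM, while Sox9 stays between 193 and 280 CPM.

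In 24 h exit against quiescent cells, Pou3f1 was higher with a log2 ratio of 2.86 [2.61 to 3.10] and Olig2 with 1.47 [1.39 to 1.54], in all 4 gates. No other of the 10 passed 2-fold, Pou3f2 at 0.97 [0.71 to 1.23] being the nearest below it; Pou3f2 passed with 1 CPM added, with mitochondrial and ribosomal protein genes out of the totals, in thinned cells, and in the low-mid and mid-high gates alone. That is 2 of 10 higher and 0 lower, beside 1.23% of 10462 genes with at least 20 counts that were at least 2-fold higher and 2.27% that were at least 2-fold lower. The median log2 ratio was 0.34 over the 10 and -0.01 over all genes. This pair shares a plate, and its summed astrocyte marker level was 9345 and 7938 CPM. Of the 10 astrocyte markers 2 were at least 2-fold higher and 2 at least 2-fold lower at 24 h.

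In 48 h exit against 24 h exit cells, Pou3f1 at 1.63 [1.48 to 1.77] and Sox11 at 1.56 [1.34 to 1.78] were higher in all 4 gates. Pou3f3 at -0.90 [-1.06 to -0.74] and Pou3f2 at -0.69 [-0.95 to -0.42] lay short of 2-fold, and past it in the high gate alone (-1.13 and -1.01). This gave 2 of 10 higher and 0 lower, beside 4.49% higher and 2.62% lower of 10324 genes, with medians of -0.34 over the 10 and -0.03 over all genes. The plates differ, and 7 of 10 astrocyte markers were at least 2-fold lower at 48 h.

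In activated against quiescent cells, Pou3f1 had a log2 ratio of 3.71 [3.49 to 3.92], Sox11 of 2.36 [2.18 to 2.54] and Olig2 of 1.03 [0.96 to 1.10]. Olig2 was just past 2-fold, and short of it with median-of-ratios scaling, with the mean CPM of single cells, in thinned cells, and in the low and the mid-high gates alone. Sox4 at 0.89 [0.69 to 1.09] and Sox21 at 0.84 [0.61 to 1.06] were just short of it. Olig1 went the other way, at -0.75 [-0.80 to -0.70], but per spike-in count its log2 ratio was only -0.12. The count was 3 of 10 higher and 0 lower, beside 9.12% higher and 6.5% lower of 11011 genes, with medians of 0.40 and 0.07. Here too the plates differ, and 7 of 10 astrocyte markers were at least 2-fold lower in activated cells. With 1 CPM added in place of 10, or per spike-in count in place of the total, Sox4 and Sox21 passed 2-fold as well and the count was 5.

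In 48 h exit against activated cells, which share a plate, Olig1 was higher at 1.14 [1.09 to 1.19] and Sox21 lower at -1.25 [-1.49 to -0.99]. Pou3f1 at 0.78 [0.68 to 0.87], Olig2 at 0.68 [0.63 to 0.73] and Sox11 at -0.55 [-0.68 to -0.43] were within 2-fold and had the same sign in all 4 gates. This is 1 of 10 higher and 1 lower, beside 1.25% higher and 1.63% lower of 10780 genes, with medians of -0.15 and -0.08. Per spike-in count with nothing added, Olig1 had a log2 ratio of 0.71 and no longer passed 2-fold, while Sox11 had -1.02. With 10 CPM added, only Sox21 of the 10 passed 2-fold per spike-in count, and the median of all genes was -0.38. Of 9 astrocyte markers with enough counts 4 were at least 2-fold higher at 48 h (median log2 ratio 0.98), as was 1 of 5 oligodendrocyte lineage markers. Per spike-in count the medians of all genes in the other comparisons were -0.29 (24 h against quiescent), 0.38 (48 h against 24 h) and 0.47 (activated against quiescent). The 24 h culture stands in 2 of the 4 comparisons, as do the other cultures, so their ratios are not independent.

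**Figure D2:**
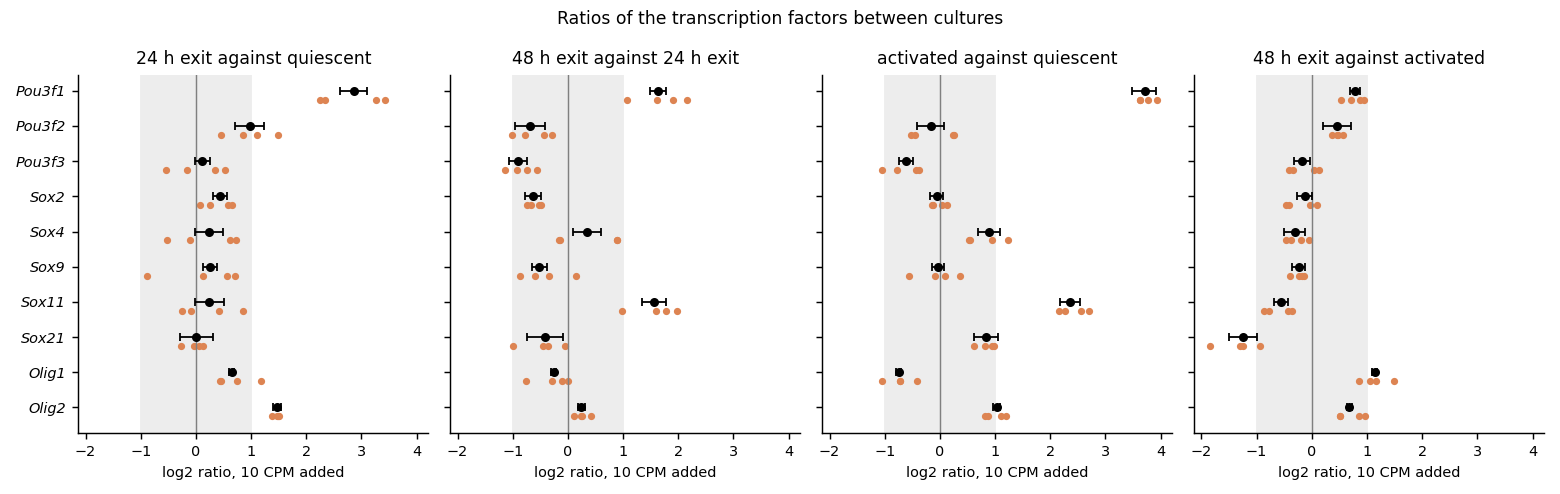
Log2 ratios (horizontal axis, 10 CPM added) of the 10 genes in 4 pairs of cultures; black points carry 95% counting intervals, orange points are the same ratio in each gate alone, and grey covers less than 2-fold. Pou3f1 stands right of the grey band in the first 3 panels, and in the last Olig1 stands right of it at 1.14 and Sox21 left of it at -1.25.

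Shares of cells with a count were taken after each cell was thinned to 12488 identifiers, which left out 18 quiescent, 29 24 h, 11 48 h and 6 activated cells. Pou3f1 was found in 12.8% [8.01 to 19.1] of quiescent, 53.3% [44.0 to 62.4] of 24 h, 92.1% [86.4 to 96.0] of 48 h and 80.4% [73.3 to 86.3] of activated cells. Without thinning these shares were 17.8%, 58.3%, 94.7% and 94.5%. Pou3f2 was in 28.2%, 58.2%, 35.7% and 18.4% of thinned cells, and Sox11 in 37.8%, 44.3%, 77.9% and 91.8%. Sox21 was in 26.9%, 29.5%, 21.4% and 41.1% and Sox4 in 35.3%, 40.2%, 47.9% and 60.1%. Sox2 (83.6% to 95.1%), Sox9 (84.3% to 89.3%) and Pou3f3 (74.3% to 86.5%) were in most cells of every culture. Olig1 was in all thinned cells, and Olig2 in all but 5 of the 156 quiescent cells. No cell type that should lack these genes was sorted, so a share due to free RNA was not measured. A thinned cell held a median of 6 of the 10 genes in quiescent cells and 7 in each of the other cultures.

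Pou3f1 was unevenly spread over cells in the 24 h culture. At 24 h, 53.3% of thinned cells carried it at a mean of 1.95 identifiers a cell, whereas Pou3f3 at 48 h was carried by 74.3% at a lower mean of 1.54. In unthinned cells the tenth of cells with most Pou3f1 held 75.5% of its counts in quiescent, 54.4% in 24 h, 28.2% in 48 h and 31.2% in activated cells. The quiescent value rests on 53 counts at a mean of 0.30 a cell. Such a share is high at any mean that low, so no uneven spread is read from it. In thinned 24 h cells the share with Pou3f1 was 78.9% in the low, 47.2% in the low-mid, 42.9% in the mid-high and 56.3% in the high gate. Thinning kept 19 of 32 low gate cells, and over all cells the shares were 62.5%, 56.8%, 55.3% and 59.5%, so no order of gates is read from them.

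**Figure D3:**
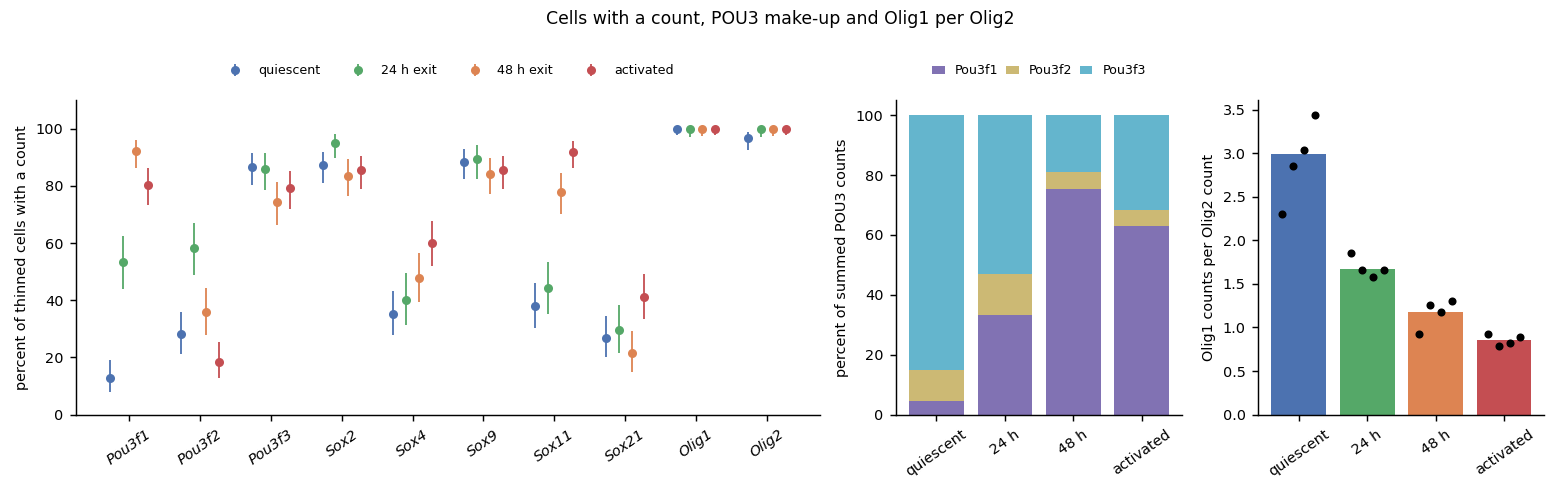
Left, percent of thinned cells with a count of each gene by culture, with 95% binomial intervals; middle, percent of the summed POU3 counts from each POU3 gene; right, Olig1 counts per Olig2 count, with points for the gates from low to high. The Pou3f1 share of POU3 counts runs from 4.47% in quiescent to 75.4% in 48 h exit cells, and Olig1 per Olig2 from 2.99 to 0.858.

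Shares of cells with both genes of a pair lay within 5.05 percentage points of the product of their separate shares. Over the 45 pairs in 4 cultures, 60 of the 180 cases hold a gene found in every cell, which fixes the joint share. In the other 120 the product of the single shares lay inside the interval of the observed share, which with 122 to 158 cells a culture is wide. That interval leaves out that the single shares come from the same cells. It therefore cannot decide whether the genes of a pair occur independently, and no such reading is made. The differences ran from -3.70 to 5.05 percentage points, the largest for Pou3f2 with Sox11 at 48 h (32.9% observed, product 27.8%). Pou3f1 and Pou3f3 were together in 10.3% of quiescent, 44.3% of 24 h, 69.3% of 48 h and 61.4% of activated cells, beside products of 11.1%, 45.9%, 68.4% and 63.6%. All 3 POU3 genes were together in 1.92%, 26.2%, 26.4% and 13.9% of cells in these cultures. Sox4 and Sox11 were together in 14.7%, 19.7%, 35.7% and 53.8%, beside products of 13.3%, 17.8%, 37.3% and 55.2%. Olig1 and Olig2 were together in nearly every cell, and the Pearson correlation of their log levels over thinned cells was 0.37 in quiescent, 0.54 in 24 h, 0.25 in 48 h and 0.47 in activated cells. The median of this correlation over all pairs and cultures was 0.04, a description over cells that share a plate and culture.

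Across autofluorescence gates, sums per culture and gate were tested in the high against the low gate with edgeR's quasi-likelihood test, with the 4 cultures as blocks and Benjamini-Hochberg adjustment over 7792 genes. Of the 10 genes 2 were lower in the high gate, Pou3f1 with a log2 fold change of -0.63 ± 0.17 (SE, adjusted p = 0.0489) and Sox11 with -0.71 ± 0.17 (adjusted p = 0.035). None was higher. Over all genes 2.12% were called higher and 0.744% lower, and the median log2 fold change was 0.05 over the 10 and -0.01 over all genes. Pou3f1 was lower in the high gate in 4 of 4 cultures, with 10.4 CPM in the high and 15.5 CPM in the low gate of quiescent cells, 87.7 and 263 CPM at 24 h, 354 and 568 CPM at 48 h, and 243 and 305 CPM in activated cells. In order of rising gate Pou3f1 also ran 263, 175, 91.7 and 87.7 CPM at 24 h and 568, 555, 443 and 354 CPM at 48 h. Sox11 was lower in 4 of 4 cultures too, with 33.1 CPM in the high and 46.4 CPM in the low gate of quiescent cells, 26.2 and 91.7 CPM at 24 h, 133 and 190 CPM at 48 h, and 182 and 355 CPM in activated cells. In quiescent cells the interval of the log2 ratio included 0 for both, at -0.32 [-0.93 to 0.31] for Pou3f1 and -0.39 [-0.88 to 0.11] for Sox11. From the low to the high gate Sox11 had 46.4, 36.3, 50.2 and 33.1 CPM there, with no order. In each other culture the intervals of both lay below 0. The other 8 did not pass, with adjusted p between 0.341 (Olig1) and 0.959 (Sox4).

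Both calls were near the threshold. In edgeR the Pou3f1 call was lost without the quiescent culture (log2 fold change -0.64, adjusted p = 0.0713), without the 24 h culture (-0.35, 0.245), without the 48 h culture (-0.73, 0.21) and on whole identifier counts (-0.63, 0.0501). The Sox11 call was lost without the 24 h (-0.54, adjusted p = 0.0711), the 48 h (-0.91, 0.0837) or the activated culture (-0.59, 0.206) in edgeR. Both kept the same sign throughout, and both passed in edgeR as a trend over the 4 gates (adjusted p = 0.00285 for Pou3f1 and 0.00584 for Sox11) and with no filter on low counts (0.00344 and 0.00102). The trend fit had 11 residual degrees of freedom because gates of 1 culture enter it as separate units. The fit with no filter had infinite prior degrees of freedom, so its p-values rest on variation shared over genes. Neither fit adds a culture. Cell phase moved with the gate in 3 of 4 cultures: S or G2M cells made up 14.0%, 8.89%, 7.14% and 6.82% of quiescent cells from the low to the high gate, 81.0%, 75.0%, 69.7% and 60.0% at 48 h, and 100%, 85.4%, 81.4% and 78.3% in activated cells, but 3.13%, 6.82%, 2.63% and 5.41% with no order at 24 h. Within G0 cells of the quiescent and 24 h cultures and S or G2M cells of the other cultures, edgeR gave Pou3f1 -0.66 (adjusted p = 0.0605) and Sox11 -0.59 (adjusted p = 0.127), neither past the threshold. Median totals also differed with the gate, at 40452 in the high and 18910 in the low gate of quiescent cells and 55395 and 25566 in activated cells. Of 10 astrocyte markers 6 were called higher in the high gate, among them S100b at 1.20 ± 0.20 (adjusted p = 0.00379). The part of phase, total and astrocyte genes in the gate differences was not tested beyond these values.

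Sox9 had no common direction over gates. It had 200 CPM in the high and 338 CPM in the low gate of quiescent cells, a log2 ratio of -0.73 [-0.95 to -0.51], and 334 and 179 CPM at 24 h, a ratio of 0.86 [0.53 to 1.20]. At 48 h (179 and 198 CPM) and in activated cells (213 and 226 CPM) the intervals of the ratio included 0. Sox4 at 24 h had 34.2 CPM in the high and 77.7 CPM in the low gate, a ratio of -0.99 [-1.58 to -0.39], with intervals that included 0 in the other 3 cultures.

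**Figure D4:**
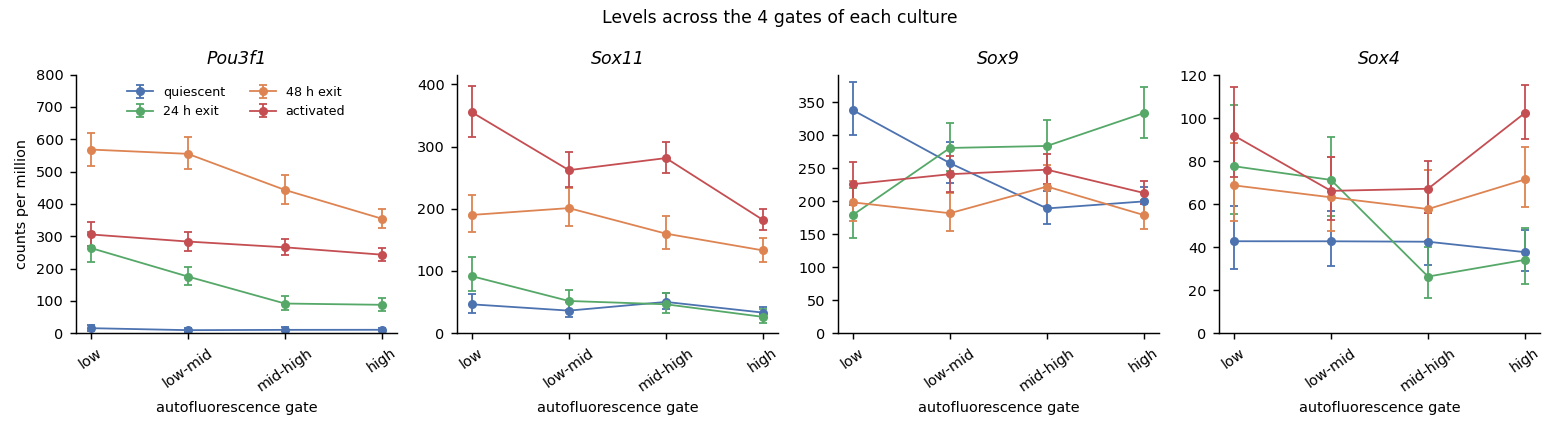
Levels in CPM (vertical axis, from 0) of Pou3f1, Sox11, Sox9 and Sox4 in the 4 gates, low to high, of each culture, with 95% counting intervals. Pou3f1 at 24 h runs from 263 CPM in the low to 87.7 CPM in the high gate, and the Sox9 lines of quiescent and 24 h cells cross.

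By the deposited cell cycle phase, S or G2M cells were set against G1 cells in the 3 cultures with at least 10 cells of each: 16 and 12 cells in quiescent, 108 and 21 in 48 h and 140 and 23 in activated cultures. How phases were assigned is not given in the sources used here. With edgeR's quasi-likelihood test on sums, cultures as blocks and adjustment over 7699 genes, Sox11 was higher in S or G2M cells by 0.93 ± 0.17 on the log2 scale (SE, adjusted p = 3.84e-05). Olig1 was lower by a log2 fold change of -0.43 ± 0.11 (adjusted p = 0.00264) and Olig2 by -0.48 ± 0.11 (adjusted p = 0.000482). So 1 of the 10 was called higher and 2 lower, beside 8.39% higher and 3.73% lower over all genes, with medians of -0.17 over the 10 and -0.04 over all genes.

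Sox11 had 85.4 CPM in S or G2M and 11.6 CPM in G1 cells of the quiescent culture, where G1 held 3 counts and the log2 ratio was 2.15 [1.02 to 3.01]. It had 192 and 115 CPM at 48 h and 269 and 142 CPM in activated cells. Its call passed in edgeR without each culture in turn and in thinned cells. The fits without a culture had 1 residual degree of freedom, so they rest largely on variation shared over genes. With no replicate block in edgeR, Sox11 was not called (adjusted p = 0.884). Over G0, G1, S and G2M cells, Sox11 had 63.5, 115, 157 and 221 CPM at 48 h, and 142, 269 and 269 CPM over G1, S and G2M of activated cells, where G0 held 1 cell.

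Olig2 had 283 CPM in S or G2M and 390 CPM in G1 cells of the quiescent culture, 1520 and 2063 CPM at 48 h and 949 and 1274 CPM in activated cells, lower in 3 of 3. Olig1 had 815 and 842 CPM in quiescent, 1757 and 2231 CPM in 48 h and 779 and 1228 CPM in activated cells. The edgeR calls of both were lost without the 48 h culture (adjusted p = 0.111 for Olig1 and 0.0725 for Olig2) and without the activated culture (0.527 and 0.0761), where the log2 fold change was -0.22 for Olig1 and -0.46 for Olig2. Markers on other lists were called lower in S or G2M cells by the same edgeR test: Cnp of the oligodendrocyte lineage at -0.56 (adjusted p = 0.0227), 1 of 3 tested there, and Nes at -0.40 (0.0189) and Vim at -0.47 (0.0058), 2 of 4 stem or progenitor markers. Their part in the Olig1 and Olig2 differences was not tested. Olig1 was also not called in thinned cells (adjusted p = 0.116) or by DESeq2 (0.167). Pou3f1, at -0.36 ± 0.14 (adjusted p = 0.0715), was called neither way, but with DESeq2 size factors in edgeR it passed at 0.0479 and without the quiescent culture at 0.0354. Sox2 at 0.34 ± 0.15 (adjusted p = 0.164), Sox9 at -0.32 ± 0.13 (0.115) and Sox4 at -0.38 ± 0.20 (0.253) did not pass, nor did Pou3f2, Pou3f3 and Sox21 (0.296 to 0.972). Median totals were 28321 in S or G2M and 20623 in G1 cells of the quiescent culture, 24804 and 26256 at 48 h, and 35231 and 40931 in activated cells.

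**Figure D5:**
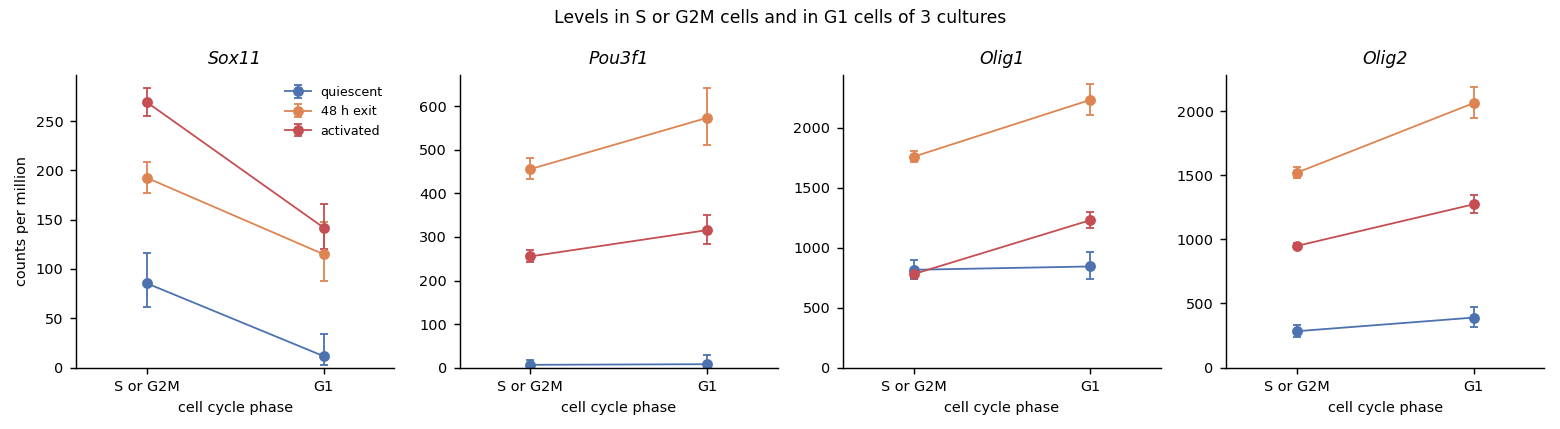
Levels in CPM (vertical axis, from 0) of Sox11, Pou3f1, Olig1 and Olig2 in S or G2M cells (left) and G1 cells (right) of the quiescent, 48 h exit and activated cultures, with 95% counting intervals. Sox11 is higher in S or G2M cells in all 3 cultures, and Olig2 is lower.

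The deposited clusters nearly followed the cultures: cluster 1 held 166 quiescent cells, cluster 2 held 163 activated cells and 1 of 48 h, cluster 0 held 145 cells of 24 h and 41 of 48 h with 2 quiescent cells, and cluster 3 held 109 cells of 48 h, 6 of 24 h, 6 quiescent and 1 activated. How the clusters were made is not given in the sources used here; they may rest on the expression of these genes, so their values are a description. The 48 h culture was split over clusters, and its cells in cluster 3 had 196 CPM of Sox11 [181 to 212], against 74.1 CPM [58.6 to 92.3] in cluster 0. Pou3f3 in 48 h cells was likewise at 128 CPM in cluster 3 and 89.1 CPM in cluster 0, while Olig1 was at 1783 CPM in cluster 3 and 2300 CPM in cluster 0. Within cluster 0, Pou3f1 had 404 CPM [367 to 444] in 48 h cells and 144 CPM [131 to 159] in 24 h cells. The 48 h and 24 h cells lay on different plates, so culture and plate cannot be told apart in this difference. Within that cluster Olig1 was at 2300 CPM in 48 h and 2297 CPM in 24 h cells. The 6 quiescent cells in cluster 3 had 125 CPM of Sox11 [83.6 to 179], against 36.2 CPM [30.9 to 42.2] in the 166 of cluster 1, and 526 CPM of Olig1, against 1505 CPM.

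Over the 16 sums of culture and gate, the genes whose log2 levels correlated best with Pou3f1 among 7758 genes were Wnt5a (Pearson r = 0.984), a secreted Wnt ligand, Gas1 (0.978), a membrane protein, and Kcnc1 (0.964), a potassium channel. Those nearest Sox11 were Snrpd1 (0.986) of the splicing machinery, Nhp2l1 (0.981) and the ribosomal protein gene Rpl21 (0.978). Nearest Olig2 were Hip1 (0.981), Spry4 (0.962) and Dusp6 (0.960), of which Spry4 and Dusp6 encode inhibitors of receptor tyrosine kinase and ERK signalling. Nearest Olig1 were Tlr3 (0.966), Rhoq (0.964) and Cspg5 (0.948). The nearest single genes were Mfn1 for Pou3f2 (0.906), Zkscan3 for Pou3f3 (0.928), Mt2 for Sox2 (0.916), Atp13a3 for Sox4 (0.920), Rbm39 for Sox9 (0.828) and Sptan1 for Sox21 (0.921). The 16 sums come from 4 cultures and 2 plates, so these values describe mostly the 4 culture levels. With each culture's mean taken out, r was 0.638 for Wnt5a, 0.751 for Gas1 and 0.298 for Kcnc1 with Pou3f1. It was 0.811 to 0.924 for the 3 genes with Sox11, 0.481 to 0.551 for those with Olig1, and 0.664 for Hip1, 0.716 for Spry4 and 0.322 for Dusp6 with Olig2. For the single genes named with the other 6 it ran from 0.336 (Sptan1 with Sox21) to 0.841 (Atp13a3 with Sox4).

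Among the other genes of these families, 7 of 12 other SOX genes had at least 20 counts in activated and quiescent cells together, and 2 were at least 2-fold higher and 2 lower in activated cells. Sox3, a SOXB1 relative of Sox2, had 108 CPM in activated and 16.2 CPM in quiescent cells (log2 ratio 2.17 [1.95 to 2.39]) and Sox1, of the same group, 39.2 and 11.6 CPM (1.18 [0.93 to 1.43]). Sox5, a SOXD gene, was lower at 36.4 CPM in activated and 161 CPM in quiescent cells (-1.88 [-2.06 to -1.71]). Of 3 other POU genes with enough counts none passed 2-fold in that pair. Of 4 other basic helix-loop-helix genes 1 did, Tcf12, an E protein that pairs with lineage factors, with 322 CPM in activated and 95.8 CPM in quiescent cells (1.65 [1.52 to 1.79]), and it was lower at 48 h than in activated cells (144 and 322 CPM, -1.11 [-1.24 to -0.99]). Of 20 other neural lineage transcription factors 3 were higher and 1 lower, among them Zeb1 with 286 and 120 CPM (1.19 [1.06 to 1.31]) and Hopx with 4.72 and 25.1 CPM (-1.25). In 24 h exit against quiescent cells, 1 of 17 passed 2-fold, the stem cell factor Pax6, lower at 22.3 CPM at 24 h and 60.2 CPM in quiescent cells (-1.12 [-1.40 to -0.83]). In 48 h against 24 h cells none of these 4 lists had a gene past 2-fold.

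In the gate test none of the 25 genes of these 4 lists that were tested was called (6 other SOX, 2 other POU, 4 other basic helix-loop-helix and 13 other neural lineage genes). In the phase test 3 were called, all higher in S or G2M cells. They were Sox1 at 1.13 ± 0.34 (SE, edgeR adjusted p = 0.0175), Pax6 at 0.75 ± 0.26 (0.0473) and Lhx2 at 0.53 ± 0.18 (0.0366), beside 8.39% of all genes.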

How the data were processed

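Per the labels' protocols, single cells were sorted into 384-well plates, lysed by heat and made into 1 library a plate by SORT-seq and CEL-Seq2. The submitters' processing notes name Seurat 4.1.1, R 4.2.0 and the aligner BWA 0.7.15, and the builds mm10 and hg19 without a role. The authors deposited expected counts, in which each count was raised for identifiers that several molecules share (4096 exist). The authors also deposited a table of cells with labels for phase, cluster, condition and gate, a score for each phase and the autofluorescence intensity recorded at the sort; the score and intensity values were not used in a comparison. Inverting the correction gave whole counts to within 0.01. Rules for keeping cells, setting phases and treating doublets are not given in the sources used here, and no cell was removed. The 128 wells without labels entered no comparison.

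CPM was computed from summed expected counts. For tests, sums were rounded and analysed in edgeR 4.0.16 (R 4.3.3; TMM, filterByExpr, quasi-likelihood, adjusted p under 0.05) with the culture as block. The gate fit had 3 residual degrees of freedom and a common coefficient of biological variation (BCV) of 0.122; the phase fit had 2 and a BCV of 0.102. Cultures are of different states and are not replicates of a state, so only changes common to them were sought. DESeq2 1.42.0 was an alternative. Intervals came from scipy 1.17.1 and figures from matplotlib 3.10.9 under Python 3.11.15, with pandas 2.3.3 and numpy 2.4.6, and tests and intervals were tested on simulated data.

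The 10 genes, the lists and most alternatives were chosen with earlier results of these data known. The spike-in scaling and the gate fit within 1 phase class were added after seeing the data. Named genes were the 10, up to 6 list genes a comparison past 2-fold with at least 100 counts or called by a test, and for each of the 10 the 3 genes most alike over 16 sums, predicted and mitochondrial genes left out, of which the text gives the nearest 1 for 6 of them. Cell type markers named as checks are beside that rule. Intervals cover counting error only.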

Additional observations from a re-analysis of the deposited data

Results flagged for a closer look

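Several genes moved in opposite directions in different cultures, with counting intervals that exclude 0 on both sides. Each value is a log2 ratio within 1 culture, and the difference between cultures was not tested. In the high against the low gate, Pou3f3 had 0.40 at 24 h and -0.50 in quiescent cells, Sox9 had 0.86 at 24 h and -0.73 in quiescent cells, and Sox2 had 0.45 at 24 h and -0.29 in activated cells. For Olig1 the value was 0.41 in the quiescent culture, 0.31 in the 48 h culture and -0.35 in the 24 h culture. Olig2 had 0.16 in activated cells, -0.18 at 24 h and -0.19 at 48 h. In S or G2M against G1 cells, Pou3f3 had 0.40 at 48 h, 0.32 in activated cells and -0.57 in quiescent cells, where 16 and 12 cells were compared.

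Wells without labels also held counts of the 10 genes, in sum 410 in 59 wells of the plate with quiescent and 24 h exit cells and 537 in 69 wells of the plate with activated and 48 h exit cells.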

How the results depend on the processing

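The count of genes past 2-fold among the 10 moved as follows. For 24 h against quiescent cells the 2 higher became 3 with 1 CPM added, with mitochondrial and ribosomal protein genes out of totals, in thinned cells and in the low-mid and mid-high gates alone (Pou3f2 added), and in the low gate alone (Olig1 added). For 48 h against 24 h, 1 was higher in the low gate alone and 2 were lower in the high gate alone. For activated against quiescent cells, 5 were higher with 1 CPM added and 5 per spike-in count, 4 in the high gate alone, and 2 (without Olig2) with median-of-ratios scaling, the mean CPM of single cells and the low and mid-high gates alone, and 1 was lower in the low-mid gate (Pou3f3) and 1 in the mid-high gate (Olig1). For 48 h against activated cells, 0 were higher in the low gate and 0 per spike-in count, and 0 were lower in the high gate. In the gate test the count of 2 became 0 with no replicate block, 1 on whole identifier counts, 0 within 1 phase class and 0 to 1 when 1 culture was left out. In the phase test the count of 3 became 0 with no replicate block and 1 to 4 when 1 culture was left out. Here the block is the culture. Over all genes the gate calls were 223 in edgeR, 124 in DESeq2, 414 with no filter, 0 with no replicate block, 638 as a trend over the 4 gates, 85 within 1 phase class and 19 to 183 without 1 culture. The phase calls were 933 in edgeR, 342 in DESeq2, 246 with no replicate block, 301 in thinned cells and 381 to 1024 without 1 culture. None of the alternatives run reversed the direction of a gene called by a test or past 2-fold. Over all alternatives, 188 log2 ratios of the 10 between cultures lay outside the main counting interval and 332 inside it. Ratios short of 2-fold could change sign. Per spike-in count, 48 h against 24 h cells gave 0.40 for Olig1, beside -0.26 in CPM, and 0.12 for Sox9, beside -0.51. Causes were not tested. Genes with few counts, such as Pou3f1 in quiescent cells, limit what these depths can resolve.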
